A study of Mus musculus with 7 samples.

Results

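The Btg/Tob antiproliferative family was examined in sorted basal progenitor (BP) lineage cells of the mouse neocortex. Its 5 members, *Btg1*, *Btg2*, *Btg3*, *Tob1* and *Tob2*, were the rows of the count matrix whose Ensembl identifiers map to these symbols, out of 38124 genes. *Btg2* is also called *Tis21*, and its locus drives the Cre recombinase with which the sorted cells were labelled.

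Btg/Tob proteins share a conserved N-terminal domain that binds the CAF1 subunits of the CCR4-NOT deadenylase, the complex that shortens the poly(A) tails of mRNAs. They slow the passage of cells from G1 into S phase, and some members also bind transcription factors and an arginine methyltransferase. In the developing neocortex, *Tis21* is the classic mark of progenitors about to undergo a neurogenic division, that is, apical radial glia (aRG) that generate BPs and the neurogenic BPs themselves.

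RNA-Seq was carried out on cells sorted by FACS for high RFP fluorescence, from heterozygous Tis21-CreERT2 embryos given tamoxifen on the day before and the day of electroporation. The neocortex was electroporated in utero at E13.5 and collected at E15.5, 48 hr later. The control construct (3 libraries, replicates 1, 2 and 4) expressed nuclear RFP upon Cre recombination, and the conditional Sox9 expression construct (4 libraries, replicates 1 to 4) expressed Sox9 as well. In both groups 1 *Tis21* allele carried a CreERT2 cassette in place of exon 1, so that all cells had 1 intact *Btg2* allele, and the counts do not separate the alleles. According to the methods, cortices of several embryos and mothers were pooled for each sort, whereas the figure legends count single neocortices, and the labels call the libraries biological replicates.

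The libraries held 4429704 to 12907778 counts on genes, with the control libraries at 10465562 or more. The *Sox9* mRNA level was no higher upon electroporation of the Sox9 construct, with 40.0 ± 8.33 (SD, n = 4) against 63.9 ± 27.5 CPM (SD, n = 3) in control and an adjusted p of 0.049 in edgeR's quasi-likelihood test, so the groups are named here by their labels. CPM are counts divided by the TMM-scaled library size and brought to a common total. The 10 neuron markers summed to 14316 to 17957 CPM in control and to 13217 to 15408 CPM in the libraries labelled Sox9, and the 10 intermediate progenitor markers to 812.5 to 867.9 and 734.6 to 955.3 CPM. *Elavl2* and *Sstr2*, at 404.4 and 170.4 CPM in control, made up most of the latter sum, and the defining gene *Eomes*, at 37.5 CPM, a small part. The 10 radial glia markers summed to 734.9 to 1441 and to 347.1 to 514.4 CPM. Oligodendrocyte precursor markers summed to 0.814 to 1.56 and to 9.73 to 27.7 CPM. Of the 5 tested, edgeR called 4 higher, and it called 21.93% of genes in their low bins by mean expression higher. DESeq2 called 5 of these markers, and limma on cyclic loess values 1. The markers of all these lists come from a bulk measurement, in which fewer cells of a type and less RNA per cell cannot be told apart.

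*Btg2* (ENSMUSG00000020423) lies on chromosome 1 at 134075170 to 134079120 of GRCm38, on the minus strand, with 2 exons, 2743 exonic bases and 158 codons. *Btg1* (ENSMUSG00000036478), the member closest to it in level, lies on chromosome 10 at 96617006 to 96622809 on the plus strand, with 2 exons, 5276 exonic bases and 171 codons. The 250 bases before the RefSeq transcription start of each are shown, 5′ to 3′ on the gene's own strand. The *Btg2* stretch is chr1:134079156-134079405 (minus strand) and precedes the exon that the CreERT2 cassette replaced on the other allele, and the *Btg1* stretch is chr10:96616751-96617000 (plus strand). Capitals mark matches to TGACGTCA (the cAMP response element), TATAAA (the TATA box), CCAAT (the CCAAT box) and ACAAT (the core of Sox protein sites) on either strand.
Btg2: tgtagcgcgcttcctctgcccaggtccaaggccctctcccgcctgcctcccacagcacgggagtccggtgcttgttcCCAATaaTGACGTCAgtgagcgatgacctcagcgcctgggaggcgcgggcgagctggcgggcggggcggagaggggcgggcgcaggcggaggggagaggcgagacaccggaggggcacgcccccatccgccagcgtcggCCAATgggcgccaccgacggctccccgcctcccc
Btg1: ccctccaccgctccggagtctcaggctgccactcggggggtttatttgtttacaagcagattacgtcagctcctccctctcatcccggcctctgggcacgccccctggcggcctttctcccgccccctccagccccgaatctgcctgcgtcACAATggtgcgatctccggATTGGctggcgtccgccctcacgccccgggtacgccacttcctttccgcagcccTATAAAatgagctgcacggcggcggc

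In *Btg2*, TGACGTCA began at position -166 from the start, and CCAAT at -173 and -34. In *Btg1*, TATAAA began at -26, CCAAT on the reverse strand at -80 and ACAAT at -99. TGACGTCA occurred in 1.79% of 32851 RefSeq promoter windows of 300 bases (250 before the start to 50 after), TATAAA in 13.62%, CCAAT in 37.41% and ACAAT in 31.02%. Among the members' windows, TGACGTCA was found for *Btg2* alone and ACAAT for *Btg1* alone. The *Tob1* window held TATAAA and CCAAT, each *Btg3* window held CCAAT, and the *Tob2* window held none of these words. The E-box words CAGCTG and CATCTG (16.3% and 17.15% of windows) and the p53 motif (8.356%) matched no member's window. G and C made up 72% of the *Btg2* window, 64.67% of the *Btg1* window, 75.33% of the *Tob1* window and 58% of the *Tob2* window, with a median of 52.67% over all windows. These matches describe the letters of these windows and not sites of binding.

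*Btg2* mRNA, the product of the locus used for labelling, fell in the libraries labelled Sox9. Its counts were 954, 1046 and 1013 in control replicates 1, 2 and 4, and 499, 486, 455 and 250 in Sox9 replicates 1 to 4. In CPM, these were 91.2, 90.9 and 103.0 CPM, and 68.5, 45.9, 50.9 and 52.4 CPM, in the same order. The groups did not overlap, and the highest library labelled Sox9, replicate 1, was below the lowest control. The mean was 95.04 ± 6.93 CPM (SD, n = 3) in control and 54.4 ± 9.80 CPM (SD, n = 4) in the libraries labelled Sox9. The log2 fold change was -0.81 (SE 0.14, 95% confidence interval -1.11 to -0.50), or 0.572 times the control level, with an adjusted p of 0.0015 in edgeR's quasi-likelihood test with Benjamini-Hochberg adjustment over 16522 genes.

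**Figure D1:**
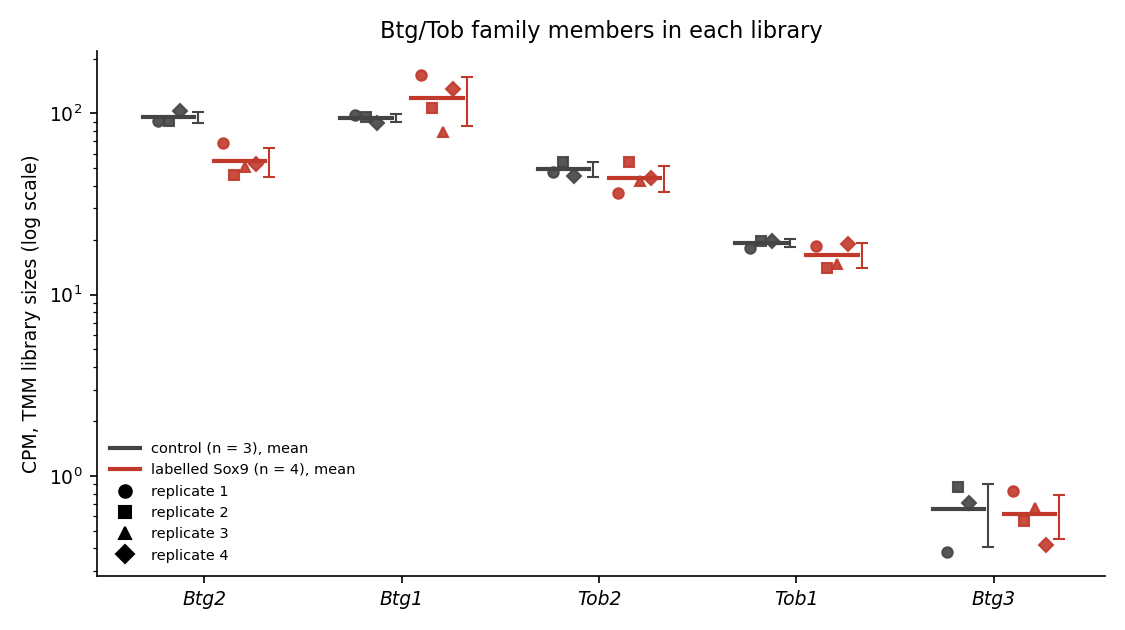
Level of each family member in each library, as CPM with TMM library sizes on a log axis. Points are libraries (marker shape gives the replicate number), thick lines are group means and thin bars are ± SD over 3 control libraries (grey) and 4 libraries labelled Sox9 (red). All 4 *Btg2* points of the libraries labelled Sox9 lie under the lowest control value of 90.9 CPM, and the groups of the other members overlap.

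*Btg2* was the member called lower among the 4 members tested, and no member was called higher. Over all genes tested, 3.43% were called lower and 11.3% higher at an adjusted p under 0.01, so that 14.7% were called in all. *Btg2* was also the member whose CPM did not overlap between the groups, as was the case, in the lower direction, for 16.4% of all genes tested (22.9% did not overlap in the higher direction, and 39.3% in either).

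The *Btg2* fold change lay near the lower end of those of genes of like level, and that of *Btg1* near the upper end. Genes were divided by mean expression into 10 bins, and *Btg2* and *Btg1* fell in the second highest, which held 1652 genes. Their median log2 fold change was -0.24, and their 10th and 90th percentiles were -0.49 and 0.04. In this bin, 7.869% of genes were called lower and 0.8475% higher. *Btg2* had 2.18% of these genes below it and *Btg1* had 98.31%. Low-level genes lay mostly above 0, with more genes detected in the libraries labelled Sox9 (24219 to 27370) than in control (23387 to 23791). The part of this trend with level in the family's values was not tested, other than by removing it. With the trend taken out by cyclic loess, the *Btg2* log2 fold change was -0.59 with an adjusted p of 0.026 in limma, past 0.05 and not 0.01 (1.72% of all genes were called lower at 0.01 in that fit). With the deposited FPKM values, it was -0.59 with a pseudocount of 0.01, or -0.79 relative to the median of all genes in that fit (adjusted p of 0.033, limma, with 0.68% of all genes called lower at 0.01).

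**Figure D2:**
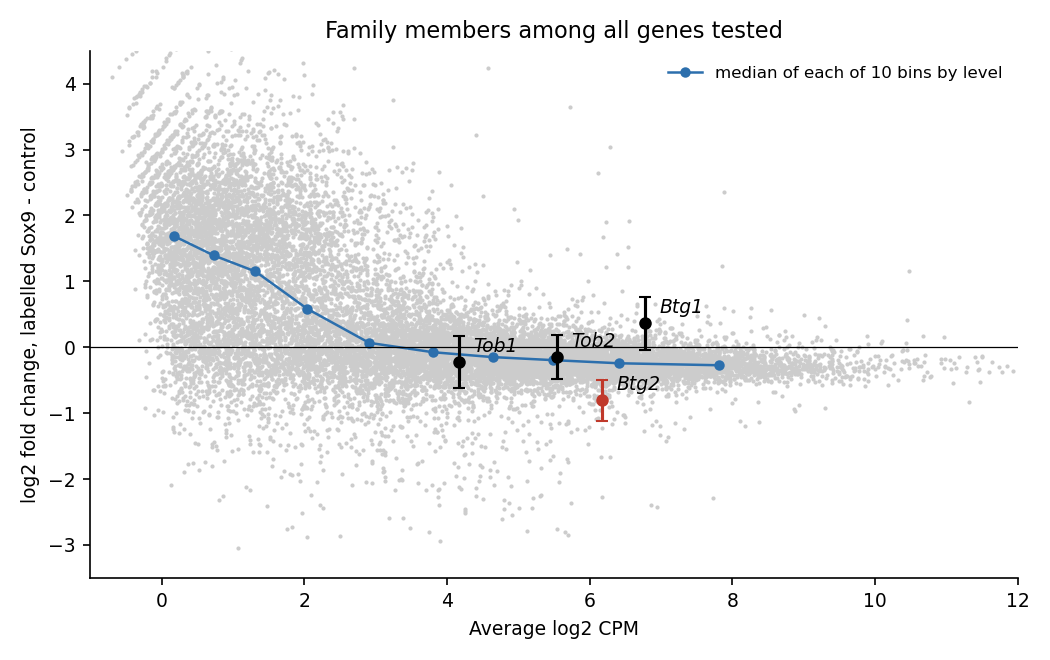
Log2 fold change (libraries labelled Sox9 minus control) against average log2 CPM for the genes tested (grey; a few beyond the axis limits are not drawn), with the median of each of the 10 bins by mean expression (blue). The 4 tested members are drawn with 95% confidence intervals, *Btg2* in red because its adjusted p was under 0.01. *Btg2* at -0.81 and *Btg1* at 0.37 lie on opposite sides of the median of their bin, -0.24.

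Markers of BPs, radial glia and neurons were measured beside *Btg2*. *Eomes*, which encodes Tbr2, the transcription factor of intermediate progenitors, fell from 37.5 ± 10.7 to 7.86 ± 1.63 CPM (log2 fold change -2.25, SE 0.23, adjusted p of 4.87e-05, edgeR). Of the 10 intermediate progenitor markers, 2 were called lower (*Eomes* and *Neurod4*) and 8 were not called, with a median log2 fold change of -0.24. Of the 10 radial glia markers, 5 were called lower and none higher, with a median of -1.18, where 3.43% of all genes were called lower (7 were called by DESeq2 and 3 by limma on cyclic loess values). None of the 10 neuron markers was called by edgeR, and their median was -0.19. At an unadjusted p under 0.05 there were 4, where 7276 of the 16522 genes tested were. DESeq2 called 1 neuron marker and limma on cyclic loess values 0. The medians of the bins these genes fall in centred on -0.15 for the intermediate progenitor list, -0.20 for the radial glia list and -0.27 for the neuron list, and the median over all genes tested was -0.0031. The part of these cell types in the fall of *Btg2* was not tested.

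*Btg1*, the close relative of *Btg2*, which is highest in quiescent cells of many tissues, did not pass the test. Its counts were 1024, 1098 and 874 in control, and 1191, 1134, 709 and 647 in Sox9 replicates 1 to 4. The CPM were 97.9, 95.4 and 88.9 in control, and 163.6, 107.2, 79.3 and 135.7 in Sox9 replicates 1 to 4. The control libraries lay close together, while the libraries labelled Sox9 spread on both sides of them, with replicates 1 and 4 high and replicate 3 low. The means were 94.1 ± 4.63 CPM (SD, n = 3) and 121.4 ± 36.3 CPM (SD, n = 4). The log2 fold change was 0.37 (SE 0.19, 95% confidence interval -0.04 to 0.77), with an adjusted p of 0.15 in edgeR's test. It stayed above 0 in all 18 alternatives (the reported fit read at 0.05 among them), at 0.21 to 0.56, with adjusted p between 0.020 and 0.39. Without Sox9 replicate 1, the highest, it was 0.21, and without Sox9 replicate 3, the lowest, it was 0.55.

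The balance between *Btg1* and *Btg2* within a library did not overlap between the groups. The ratio of *Btg1* to *Btg2* counts was 1.07, 1.05 and 0.863 in control, and 2.39, 2.33, 1.56 and 2.59 in Sox9 replicates 1 to 4. A ratio within a library does not depend on the scaling of libraries. The mean ratio was 2.23 times as high in the libraries labelled Sox9 (2.22 ± 0.452, SD, n = 4) as in control (0.995 ± 0.115, SD, n = 3). Among the 1363726 pairs of genes in the bin of *Btg1* and *Btg2* by mean expression, the ratio did not overlap for 17.5%. Of the 6 pairs formed by the 4 members tested, the ratio did not overlap for 2, and both pairs held *Btg2*. The other was *Btg2* to *Tob1*, at 5.05, 4.57 and 5.20 in control, and 3.70, 3.28, 3.45 and 2.75 in Sox9 replicates 1 to 4. *Tob1* and *Tob2* fall in other bins, so the 17.5% does not apply to pairs that hold them. No share was computed for those pairs, and the count of 2 of 6 has none to be read against. The ratio of *Tob1* to *Tob2* overlapped, with means of 0.395 ± 0.0382 and 0.387 ± 0.108. These ratios are given without a test.

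**Figure D3:**
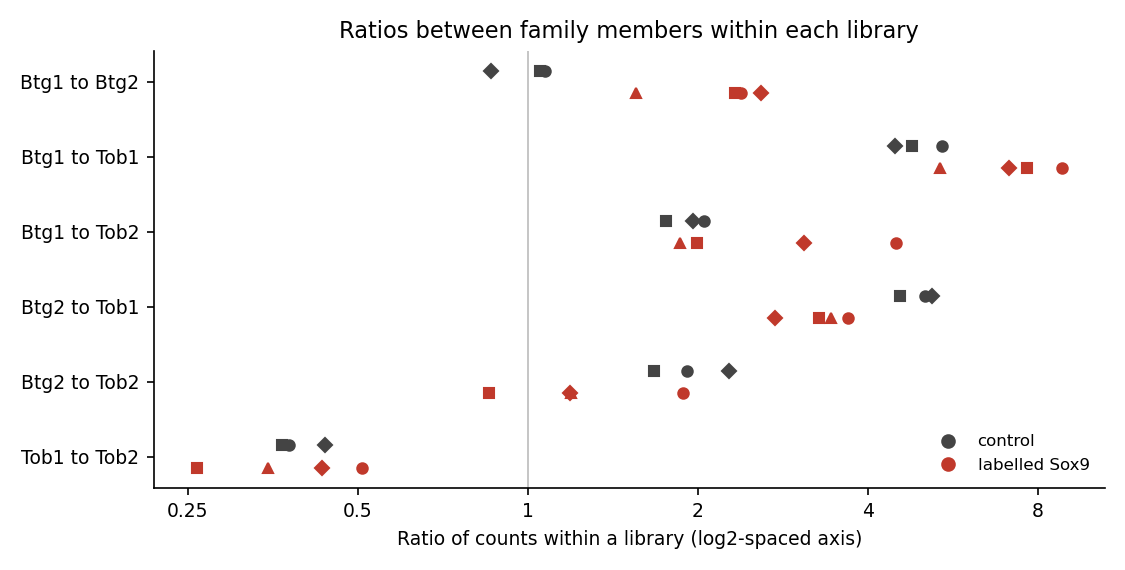
Ratio of counts between members within each library, on an axis spaced by log2, for the 6 pairs of the 4 members tested. Each point is a library (grey, control, n = 3; red, labelled Sox9, n = 4; shapes give the replicate number as circle 1, square 2, triangle 3, diamond 4). The groups are apart for *Btg1* to *Btg2* and *Btg2* to *Tob1* and overlap for the other 4 pairs.

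The Tob genes encode larger proteins with a long C-terminal part that binds the cytoplasmic poly(A)-binding protein, and neither passed the test. *Tob1* (ENSMUSG00000037573; chromosome 11, 94211454 to 94215495, plus strand; 362 codons) had 18.1, 19.9 and 19.8 CPM in control, and 18.5, 14.0, 14.8 and 19.1 CPM in Sox9 replicates 1 to 4. Sox9 replicates 2 and 3 were under all controls, and replicates 1 and 4 were among them. Its log2 fold change was -0.22 (SE 0.19, 95% confidence interval -0.63 to 0.18), with an adjusted p of 0.38 in edgeR's test. The median of its bin of genes by expression was -0.075, and 35.05% of that bin lay below *Tob1*.

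*Tob2* (ENSMUSG00000048546; chromosome 15, 81848272 to 81858796, minus strand; 345 codons) had 47.7, 54.2 and 45.3 CPM in control, and 36.4, 53.8, 42.6 and 44.0 CPM in Sox9 replicates 1 to 4. Replicate 2 of the libraries labelled Sox9 lay within the control range and the other 3 lay under it. The log2 fold change was -0.15 (SE 0.15, 95% confidence interval -0.48 to 0.18), with an adjusted p of 0.49 in edgeR's test. In its bin, with a median of -0.20, 57.63% of genes had a lower fold change. The direction of *Tob2* was not kept under cyclic loess normalization or with FPKM, and that of *Tob1* was not kept with FPKM and a pseudocount of 0.1. Leaving out 1 library gave -0.24 to -0.04 for *Tob2*, with -0.04 without Sox9 replicate 1, and -0.29 to -0.13 for *Tob1*, with -0.13 without Sox9 replicate 2.

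*Btg3*, which is expressed in proliferating neuroepithelium and binds the CAF1 subunits like its relatives, had few counts. They were 4, 10 and 7 in control, and 6, 6, 6 and 2 in Sox9 replicates 1 to 4, or 0.382 to 0.869 and 0.419 to 0.824 CPM. The groups overlapped, and *Btg3* did not pass the filter on low counts. Without a filter, its log2 fold change was -0.15 (SE 0.71, 95% confidence interval -1.55 to 1.25, adjusted p of 0.90 in edgeR's test), and the fit could not tell a change within this interval from none. The summed counts of 21 and 20 gave a ratio of rates of 0.959 (exact 95% interval 0.493 to 1.86, covering counting error only, as there were no molecular identifiers).

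The level of *Btg3* itself is uncertain. *Btg3* (ENSMUSG00000022863; chromosome 16, 78332637 to 78377192, minus strand; 252 codons) shares 682 of the 1340 windows of 75 bases, the read length, in the transcript examined with a processed pseudogene, *Gm7334*. A read that matches both cannot be assigned to either by its sequence. *Gm7334* had 0 to 3 counts per library. In addition, 695 of the 4014 exonic bases of *Btg3* overlap exons of *Cxadr* on the opposite strand (64.15% lie within its span, introns included). *Cxadr* had 1167 to 4284 counts per library over its whole length, and the library preparation does not mark strand. By the same measure, *Btg2* and *Tob1* shared no window with another gene, *Btg1* shared 78 of 4927 with the pseudogene *Gm14519* (0 or 1 count per library), and *Tob2* shared 135 of 4077 with the antisense gene *Gm49476*.

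To compare levels between genes, CPM were divided by the exonic length in kilobases. In control, *Btg2* stood first at 34.7 ± 2.53 CPM per kilobase, followed by *Btg1* at 17.8 ± 0.878, *Tob1* at 8.42 ± 0.455, *Tob2* at 7.36 ± 0.695 and *Btg3* at 0.163 ± 0.0619 (SD, n = 3). The ranges of *Tob1* and *Tob2* overlapped, and the other neighbours were apart. In the libraries labelled Sox9, *Btg1* stood first at 23.0 ± 6.89 CPM per kilobase and *Btg2* second at 19.9 ± 3.57 (SD, n = 4), and their ranges overlapped. *Tob1* at 7.25 ± 1.13 and *Tob2* at 6.63 ± 1.08 overlapped again, and *Btg3* was at 0.154 ± 0.0425. Against the 14267 protein-coding genes tested, whose median was 2.90 CPM per kilobase in control, *Btg2* was above 88.83% of genes, *Btg1* above 80.65%, *Tob1* above 68.56% and *Tob2* above 66.07%.

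The order of *Tob1* and *Tob2* depended on the length used. Per kilobase of the longest transcript and in the deposited FPKM, *Tob2* stood above *Tob1* in both groups, and without Sox9 replicate 1 it did so in the libraries labelled Sox9. The CPM of the 5 members summed to 255.2, 261.3 and 257.8 in control, and to 287.9, 221.4, 188.1 and 251.6 in Sox9 replicates 1 to 4, so that the sums overlapped.

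A list of 18 deadenylation genes held the CCR4-NOT subunits, the PAN2-PAN3 and PARN deadenylases and the poly(A)-binding proteins. Of these, the partners of the family named above are the CAF1 subunits and the cytoplasmic poly(A)-binding protein. All 18 were tested, 1 was called lower and none higher, with 4 above 0 and a median log2 fold change of -0.29 (4 were called lower by DESeq2 and 0 by limma on cyclic loess values). Over all genes, edgeR called 3.43% lower and DESeq2 7.9%. At an unadjusted p under 0.05 in edgeR's test there were 10 of the list, where 7276 of the 16522 genes tested were. Each gene's bin by mean expression has a median of its own, and the median of these over the list was -0.24, so the list lay close to genes of like level. The gene called was *Pan2*, the catalytic subunit of the PAN2-PAN3 deadenylase, which fell from 128.3 ± 12.7 to 82.7 ± 13.9 CPM (log2 fold change -0.64, SE 0.14, adjusted p of 0.0049, edgeR). This call was lost without control replicate 2 or 4 and without Sox9 replicate 1, 2 or 3. *Cnot7* and *Cnot8* encode CAF1, the subunit that Btg/Tob proteins bind. *Cnot7* went from 209.5 ± 11.1 to 174.0 ± 21.1 CPM (log2 fold change -0.27, SE 0.12, adjusted p of 0.093), and *Cnot8* from 194.4 ± 6.54 to 157.5 ± 3.09 CPM (log2 fold change -0.30, SE 0.10, adjusted p of 0.036), neither past 0.01 in edgeR's test.

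**Figure D4:**
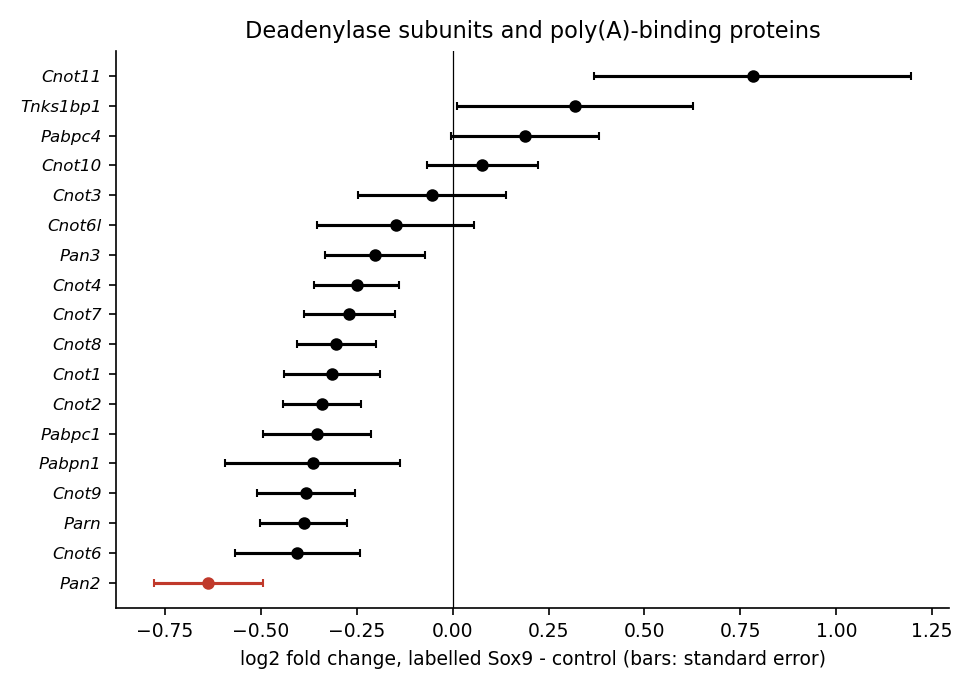
Log2 fold change (libraries labelled Sox9 minus control) of the 18 genes for deadenylase subunits and poly(A)-binding proteins, with bars of ± 1 standard error from edgeR. *Pan2* (red), at -0.64, is the gene of this list with an adjusted p under 0.01, and 14 of the 18 points lie below 0, where the medians of their bins by mean expression centre on -0.24.

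Genes whose products bind Btg/Tob proteins, or regulate or are regulated by them, formed a second list, of which 14 were tested. None was called at 0.01 in edgeR's test, and 5 were at 0.05, where 32.7% of all genes were called, 21.9% higher and 10.8% lower. At an unadjusted p under 0.05 there were 5, where 7276 of the 16522 genes tested were. DESeq2 called 2 and limma on cyclic loess values 0. The median log2 fold change was -0.10 (-0.15 for genes of like level, taken as the median over the list of each gene's bin median). The smallest p-values belonged to *Trp53*, which encodes p53, an activator of *Btg2* (log2 fold change -0.45, SE 0.14, adjusted p of 0.022), *Foxo3*, a FoxO factor (-0.40, SE 0.13, adjusted p of 0.031), and *Id3* (1.11, SE 0.37, adjusted p of 0.033). *Prmt1*, the arginine methyltransferase, was not matched by its symbol and is not analysed here.

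Of 20 genes for entry into and exit from G1, the step at which the family acts, 5 were called lower and 1 higher, where 3.43% and 11.3% of all genes were, with a median log2 fold change of -0.31 (-0.075 for genes of like level). DESeq2 called 8 of them and limma on cyclic loess values 5, and with FPKM 1 was called lower. *Cdkn1c*, a CDK inhibitor, rose from 36.2 ± 4.27 to 136.9 ± 34.0 CPM (log2 fold change 1.92, SE 0.18, adjusted p of 3.71e-05, edgeR). *Ccne2*, cyclin E2, fell from 29.4 ± 8.77 to 8.36 ± 0.967 CPM (adjusted p of 0.00018, edgeR), and *Mki67*, which marks cycling cells, from 32.2 ± 12.0 to 10.7 ± 0.865 CPM (adjusted p of 0.00051, edgeR). The D-type cyclin gene *Ccnd2* fell by 1.12 on the log2 scale (SE 0.18), as did its partner *Cdk6* by 1.28 (SE 0.27) and *Cdk2* by 0.94 (SE 0.22). *Ccnd1*, the cyclin D1 gene whose expression Btg/Tob proteins are known to repress, was at 7.66 ± 0.813 CPM in control and 9.75 ± 1.39 CPM in the libraries labelled Sox9 and did not pass the test (log2 fold change 0.34, SE 0.24, adjusted p of 0.29, edgeR). The calls lower numbered 3 in place of 5 without control replicate 2 and without Sox9 replicate 1.

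*Btg2* was first cloned as an immediate early gene and is among the genes that dissociation of tissue can induce. Of 22 immediate early genes, 19 were tested. None was called at 0.01 by edgeR, DESeq2 or limma on cyclic loess values. In edgeR's test, 1 was called at an adjusted p of 0.05, higher, where 21.9% of all genes were. At an unadjusted p under 0.05 there were 3, where 7276 of the 16522 genes tested were. The median log2 fold change was -0.25 (0.067 for genes of like level). *Fos* had 98.7 ± 42.4 CPM in control and 60.1 ± 24.4 CPM in the libraries labelled Sox9 (log2 fold change -0.73, SE 0.28, adjusted p of 0.055), and *Egr1* 7.03 ± 3.38 and 3.38 ± 1.67 CPM (-1.06, SE 0.43, adjusted p of 0.070, edgeR). *Egr2*, with the smallest p-value of the list, had 1.03 ± 0.901 and 3.96 ± 2.71 CPM (1.92, SE 0.63, adjusted p of 0.030, edgeR). The groups overlapped for all 3 genes. The part of such induction in the *Btg2* values was not tested.

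For each member, the 3 protein-coding genes most like it over the 7 libraries were taken by Pearson's r of log2 CPM, out of the 9461 such genes whose normalized counts averaged 50 or more. The libraries share their group, depth and preparation across genes, so these values are a description. For *Btg2* they were *Prdx3* (r = 0.998), a mitochondrial peroxiredoxin, *Sltm* (r = 0.988) and *Ccnc* (r = 0.988), which encodes cyclin C. *Btg1* was followed by *4930432K21Rik* (r = 0.985), *Ttc14* (r = 0.942) and *Npy* (r = 0.932), the gene of neuropeptide Y. The nearest to *Tob1* were *Gem* (r = 0.988), *Bag2* (r = 0.983) and *Snx5* (r = 0.974), and to *Tob2* they were *Atf2* (r = 0.992), *Cdip1* (r = 0.985) and *Sox4* (r = 0.973). No gene was shared between these lists, and *Btg3* was below the filter.

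Across the 18 alternative settings, the *Btg2* log2 fold change lay between -0.91 and -0.59, and *Btg2* was called in 14 of them. Among these was the reported fit read at an adjusted p under 0.05, whose value and call were fixed by the reported ones. *Btg2* was called in all 7 fits that left out a library, at -0.91 to -0.71.

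**Figure D5:**
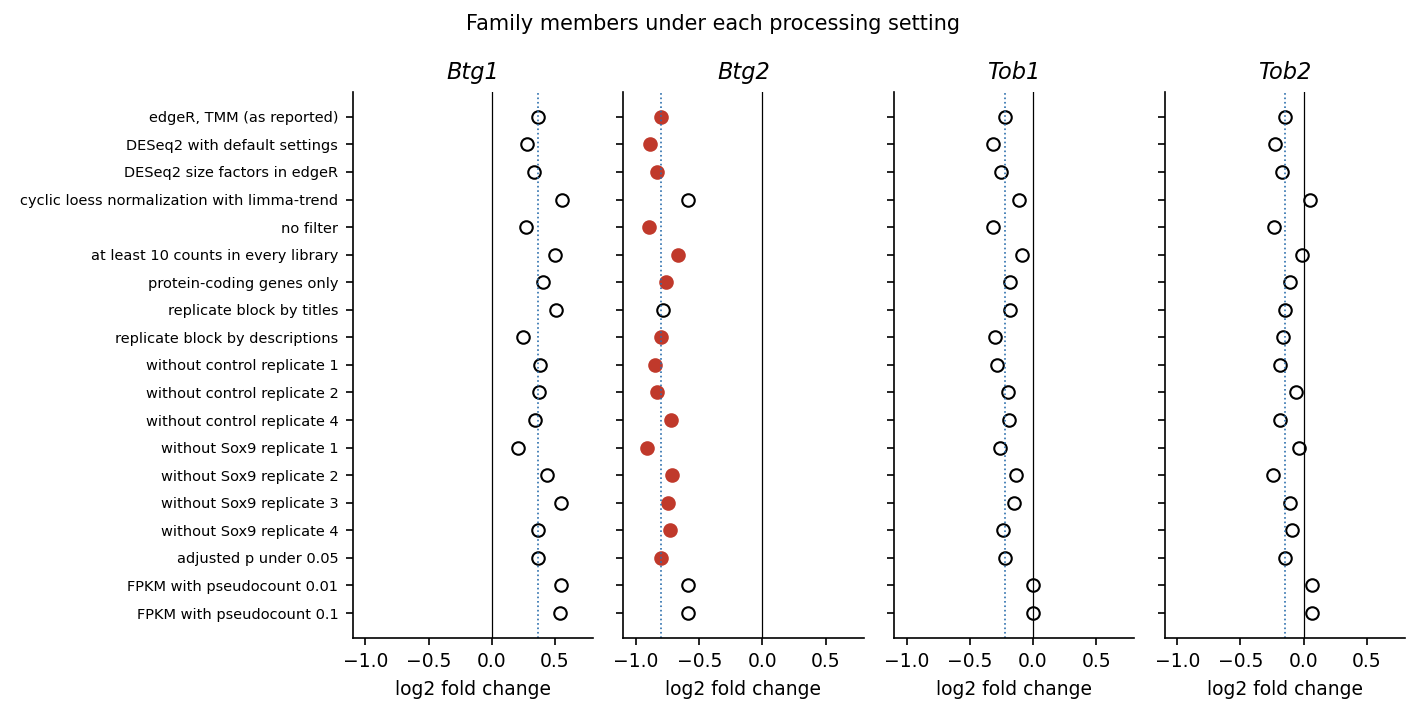
Log2 fold change (libraries labelled Sox9 minus control) of the 4 tested members under the reported fit (top line, dotted blue) and 18 alternative settings. Filled red points passed the adjusted p threshold of the setting (0.01, or 0.05 where named), and open points did not. *Btg2* is below 0 in every setting, *Btg1* above 0 in every setting, and *Tob1* and *Tob2* lie between -0.32 and 0.07.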

How the data were processed

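RNA-Seq of High RFP cells from 3 control libraries and 4 libraries labelled Sox9 was used, grouped by sample titles. Replicate numbers follow the titles, and the descriptions number the third control 3. The authors amplified poly-dT-primed cDNA by PCR without molecular identifiers, sequenced 75 bases single-end, trimmed adapters with cutadapt and aligned reads to GRCm38 with STAR (version 2.5.2b per the submitters' processing notes, which also list bcl2fastq 2.17.1.14). The counting program is not given in the sources used here. Raw counts for each Ensembl gene were deposited (38124 genes, 5641 without a count). They also deposited FPKM values (27806 genes, 558 without a value, *Btg3* among these). The length that links counts and FPKM was 1.001, 0.9993, 0.9993 and 0.955 times the whole gene span for *Btg1*, *Btg2*, *Tob1* and *Tob2*, so the deposited FPKM are per kilobase of span, introns included, for these genes.

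Symbols and lengths came from GENCODE M21 (36345 genes matched by identifier), and promoters from RefSeq on GRCm38.p6. No protein sequence is shown. The test was edgeR 4.0.16 on the counts, in R 4.3.3 (TMM, filterByExpr, quasi-likelihood test, two-sided, no covariate), with Benjamini-Hochberg adjustment over 16522 genes and a threshold of 0.01. The SE is the absolute log2 fold change divided by the square root of F. DESeq2 (the study's tool, here in version 1.42.0), limma 3.58.1 on cyclic loess values and on log2 FPKM plus 0.01 or 0.1, other filters and size factors, leaving out libraries and replicate blocks were alternatives. On the FPKM scale, fold changes of low genes are understated. Tables and plots used Python 3.11.15.

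Genes named were the 5 members, *Btg4* and *Sox9*, the genes of the deadenylation list that passed with *Cnot7* and *Cnot8*, the 3 smallest p-values of each other context list, *Ccnd1*, *Prmt1*, *Trp53*, *Fos*, *Egr1* and *Eomes*, and the 3 nearest patterns per member. Others called in a list, and genes sharing sequence or position with a member, were named after their values were seen. The members and lists were chosen with earlier results of these data known, so counts over lists are a description. Replicates differed beyond sampling noise, and p-values measure the spread between these libraries.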

Additional observations from a re-analysis of the deposited data

How the results depend on the processing

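The *Btg2* log2 fold change kept its direction in all 18 alternatives (the reported fit read at 0.05 among them) and was not past the threshold in 4. It was -0.59 under cyclic loess (adjusted p of 0.026, limma), -0.79 with the replicate block by titles (adjusted p of 0.012, edgeR), and -0.59 with FPKM at pseudocounts of 0.01 and 0.1 (adjusted p of 0.033 and 0.034, limma). Family members called lower were then 0 in place of 1. *Tob2* reversed to 0.050 under cyclic loess and to 0.067 and 0.066 with FPKM, and *Tob1* to 0.00027 with FPKM and a pseudocount of 0.1, none past the threshold. FPKM shifted the median log2 fold change of all genes to 0.20 and 0.14, so relative to that median both Tob genes stayed below it, and *Btg2* was at -0.79 and -0.73 (-0.80 as reported). The cause of the other changes was not tested.

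All genes called higher and lower, 1862 and 567 as reported, were 363 and 284 under cyclic loess, 638 and 204 with at least 10 counts in every library, 400 and 218 with the replicate block by titles, 1034 and 353 with the replicate block by descriptions, and 3616 and 1787 at an adjusted p of 0.05. Those called lower were 1421 with DESeq2, 1452 with no filter, and 111 and 104 with FPKM. Leaving out 1 library gave 827 to 1590 higher and 208 to 475 lower, fewest without control replicate 2.

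Deadenylation genes called lower, 1 as reported, were 4 with DESeq2, 2 with no filter, 5 at 0.05, and 0 under loess, with at least 10 counts, with the block by titles and with FPKM, and 0 to 1 leaving out a library. Partners called higher and lower, 0 as reported, were 1 and 1 with no filter, 2 and 3 at 0.05, and 2 lower with DESeq2, and 0 to 1 higher leaving out a library. G1 genes called lower, 5 as reported, were 3 with at least 10 counts, 1 with FPKM at either pseudocount, 8 lower and 2 higher at 0.05, and 3 to 5 leaving out a library. Immediate early genes called higher and lower were 1 and 2 with no filter, 1 higher at 0.05 and 1 lower with the block by descriptions.

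Per kilobase of longest transcript, control levels were 18.8 for *Btg1* and 11.8 for *Tob2*, and *Tob2* was at 10.6 and *Btg3* at 0.206 in the libraries labelled Sox9. The deposited FPKM, per kilobase of span, averaged 14.7 for *Btg1*, 22.0 for *Btg2*, 4.35 for *Tob1* and 4.44 for *Tob2* in control, and 14.8, 4.39 and 4.67 for *Btg2*, *Tob1* and *Tob2* in the libraries labelled Sox9. With either length *Tob2* ranked 3 and *Tob1* 4 in both groups. Leaving out 1 library, both ranked 3 or 4 in the libraries labelled Sox9.

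Same-numbered libraries did not deviate together (correlations of -0.036, 0.118 and -0.0049 by titles, and -0.036, 0.118 and 0.017 by descriptions), as only replicate 2 reached 0.1, so the block result is given here alone. Alternatives on *Btg3* other than DESeq2 and no filter gave no value, since it was below the filter or had no FPKM. *Btg3* had counts of 2 to 10 and a wide interval, and the parts of depth, shared sequence and a low level in this were not tested.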

Other observations

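*Btg4*, the remaining Btg gene (ENSMUSG00000032056, on chromosome 9), known mainly from germ cells, is no member of the set above and was near the limit of detection. It had 3, 1 and 2 counts in control replicates 1, 2 and 4, and 8, 8, 15 and 1 counts in Sox9 replicates 1 to 4. Replicate 4 of the libraries labelled Sox9, the shallowest, lay within the control counts. Replicate 3 alone held 15 of the 32 counts of its group. Of the exonic bases of *Btg4*, 445 lie within the span of *Layn* on the opposite strand, and 0 overlap its exons. *Layn* too was highest in that library, with 45 counts against 5 to 22 in the others. The part of *Layn* in the *Btg4* counts was not tested. Without a filter, edgeR's fit over libraries did not pass 0.01 (log2 fold change 2.20, SE 0.82, adjusted p of 0.036). The summed counts of 6 and 32 gave a ratio of rates of 5.37 (exact 95% interval 2.21 to 15.7, counting error only). Low-level genes as a group had more counts in the libraries labelled Sox9, and the part of this in the *Btg4* values was not tested.

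Shares of genes called higher by edgeR were averaged over the bins by mean expression in which each list's genes fall. They were 10.59% for the astrocyte list, and 21.99%, 20.26%, 17.47% and 22.01% for the endothelial, microglia, erythroid and interneuron lists. Over all genes tested, edgeR called 3.43% lower. Of the other marker lists, astrocyte markers had 3 genes called higher and 2 lower of 6 tested (summed level 76.1 to 97.8 CPM in control and 54.4 to 65.0 CPM in the libraries labelled Sox9). Endothelial markers had 2 of 6 called higher (4.78 to 13.6 and 16.8 to 43.9 CPM), microglia markers 1 of 7 (9.94 to 35.0 and 13.8 to 61.0 CPM) and erythroid markers 1 of 5 (2.10 to 24.5 and 13.3 to 93.2 CPM). None of 3 interneuron markers was called by edgeR (1 at an unadjusted p under 0.05), DESeq2 or limma on cyclic loess values (4.43 to 4.87 and 8.16 to 13.1 CPM). By limma on cyclic loess values, 1 astrocyte marker and 0 endothelial, microglia and erythroid markers were called, and by DESeq2 6, 2, 1 and 0. At an unadjusted p under 0.05, edgeR gave 6, 4, 1 and 5, where 7276 of all 16522 genes tested were. Their part in the family's values was not tested.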
